A study of Mus musculus with 9 samples.

Results

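The genes described here are 10 imprinted genes of fetal growth, H19, Igf2, Igf2r, Dlk1, Meg3, Peg3, Plagl1, Grb10, Mest and Cdkn1c, out of 35275 genes counted by RNAseq in 9 mouse mammary tumors. They were chosen by symbol because the level of H19 spanned several orders of magnitude among these same tumors, so the spread of H19 is given as a description with no test. All 10 were in the table, 9 passed the filter on low counts, and 8 were tested, since Dlk1 was too low and H19 was left out of the tests. The tumors arose in Brca1Co/Co;MMTV-Cre;p53+/- mice, in which Cre under the mammary tumor virus promoter removes conditional Brca1 alleles mainly from mammary epithelium and 1 germline copy of p53 is missing. Every group carried this genotype, so no comparison bears on Brca1 or p53 themselves. The groups held 3 tumors each, from mice given saline, i.v. Talazoparib (i.v. TLZ), an inhibitor of the DNA repair enzyme PARP, or the same drug in a nanoparticle (NanoTLZ). All groups received 5 i.v. doses, given 3 times a week, and both drug forms were dosed at 0.33 mg/kg. Group members are named by their labels, A3673, A3685 and A3688 for saline, B3638, B3684 and B3700 for i.v. TLZ, and C3519, C3669 and C3698 for NanoTLZ. Tumors given empty nanoparticles were not part of the RNAseq, so the carrier was not tested apart from the drug in NanoTLZ.

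An imprinted gene is transcribed mainly from the copy inherited from 1 parent, according to DNA methylation laid down in the egg or sperm. Paternally expressed genes such as Igf2, Peg3, Plagl1, Mest and Dlk1 are in general growth promoting, whereas maternally expressed genes such as H19, Igf2r, Grb10, Cdkn1c and Meg3 are in general growth limiting. Most are high in fetal and placental tissue, fall after birth, and can be expressed again in tumors. H19 and Igf2 lie next to each other and share enhancers, and a methylation-sensitive insulator bound by CTCF directs those enhancers to H19 on the maternal copy and to Igf2 on the paternal copy.

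Total counts ranged from 17538380 to 21194980 per tumor with a median of 19747343, and no pair of columns was identical. Epithelial markers were present in every tumor, with Krt8 at 738 to 2623 and Epcam at 604 to 1368 CPM (read counts scaled to a common library size). Saline tumor A3688 stood apart: its mean Spearman correlation with the other tumors across genes was 0.867, against 0.916 to 0.947 for the other 8, and it held the highest value of 25.7% of all tested genes. It also held 1849 CPM of the basal keratin Krt5, against 72.9 CPM or less elsewhere.

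Several of the genes carry microRNAs inside their transcripts, which show what else the measured transcripts can yield. The mature sequences below are from RefSeq (GRCm38.p6), written 5′ to 3′ with the seed (bases 2 to 8) in capitals. No other mature miRNA of that table had any of these seeds, and the counts did not measure mature miRNAs. The miR-675 pair lies within H19 (5p at chr7:142577112-142577133 and 3p at chr7:142577078-142577099, minus strand), the miR-483 pair within Igf2 (5p at chr7:142654968-142654989 and 3p at chr7:142654932-142654952, minus strand), and the miR-335 pair within Mest (5p at chr6:30741314-30741336 and 3p at chr6:30741354-30741375, plus strand).
mmu-miR-675-3p: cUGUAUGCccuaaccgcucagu
mmu-miR-675-5p: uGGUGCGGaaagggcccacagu
mmu-miR-483-3p: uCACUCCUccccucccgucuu
mmu-miR-483-5p: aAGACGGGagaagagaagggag
mmu-miR-335-3p: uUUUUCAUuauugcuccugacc
mmu-miR-335-5p: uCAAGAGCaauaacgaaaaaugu

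Imprints are carried by methylation of CG dinucleotides. Promoters of Igf2, Peg3 and Mest, the tested genes with the widest ranges of CPM that the floor of 3 counts allows to be given, are shown with each CG in capitals. The Igf2 window is a promoter and not the insulator described above. Each window runs from 250 bases before to 50 bases after an annotated start in RefSeq (GRCm38.p6), on the strand of the gene, and the window with the most CG was taken. The Igf2 window (chr7:142658755-142659054, minus strand) held 24 CG, the Peg3 window (chr7:6730370-6730669, minus strand) 13, and the Mest window (chr6:30737800-30738099, plus strand) 17. The motif searched was CG, which reads the same on both strands. The median over 32851 promoter windows was 7, and 20%, 37.9% and 31.4% of them held at least as many CG as the Igf2, Peg3 and Mest windows. Those windows of other promoters were not chosen for CG, so the shares for Igf2 and Mest are not a like comparison. The other Igf2 windows held 7, 14 and 2 CG, and another Mest window held 8. Methylation was not measured in these tumors. Of the 10 genes, 8 had a promoter window in that table, with 15 windows in all.
Igf2 promoter: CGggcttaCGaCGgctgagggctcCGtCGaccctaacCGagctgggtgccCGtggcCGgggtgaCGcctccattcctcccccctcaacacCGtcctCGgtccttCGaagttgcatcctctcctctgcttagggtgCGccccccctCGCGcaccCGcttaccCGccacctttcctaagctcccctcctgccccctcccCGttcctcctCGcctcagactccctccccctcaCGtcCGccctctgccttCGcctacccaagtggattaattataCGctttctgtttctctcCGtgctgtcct
Peg3 promoter: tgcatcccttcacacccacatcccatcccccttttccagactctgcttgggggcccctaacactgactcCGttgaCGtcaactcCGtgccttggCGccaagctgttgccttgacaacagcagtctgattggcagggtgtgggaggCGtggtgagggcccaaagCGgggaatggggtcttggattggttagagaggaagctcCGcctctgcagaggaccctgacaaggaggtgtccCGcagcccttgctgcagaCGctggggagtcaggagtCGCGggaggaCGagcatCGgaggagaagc
Mest promoter: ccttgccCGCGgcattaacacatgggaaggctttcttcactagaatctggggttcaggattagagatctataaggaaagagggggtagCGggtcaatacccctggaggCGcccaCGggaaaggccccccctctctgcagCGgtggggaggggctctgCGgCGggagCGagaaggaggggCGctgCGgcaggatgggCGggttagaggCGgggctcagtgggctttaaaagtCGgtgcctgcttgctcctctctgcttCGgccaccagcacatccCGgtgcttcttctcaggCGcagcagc

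H19, a maternally expressed long noncoding RNA (chromosome 7, 142575529 to 142578143, minus strand, GRCm38), was the member chosen for its spread. It stood at 11.9, 2525 and 60.5 CPM in saline tumors A3673, A3685 and A3688, at 171, 6.45 and 284 CPM in i.v. TLZ tumors B3638, B3684 and B3700, and at 952, 333 and 13.0 CPM in NanoTLZ tumors C3519, C3669 and C3698. Each group therefore held at least 1 tumor with H19 near 10 CPM and at least 1 tumor with more than 100 CPM, and all groups overlapped. The highest tumor had 391-fold the level of the lowest (148-fold without A3685), at 52984 against 118 counts. In A3685, H19 alone took 0.252% of all counts. Group means were 866 ± 1437 (SD, n = 3) for saline, 154 ± 140 (SD, n = 3) for i.v. TLZ and 433 ± 478 (SD, n = 3) CPM for NanoTLZ, and differences between groups made up 3.32% of the variance of its log2 CPM, against a median of 22.8% over all tested genes.

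Igf2, the fetal insulin-like growth factor encoded next to H19 (chromosome 7, 142650766 to 142666816, minus strand), was high in a single tumor. It measured 4.63, 23.9 and 1.47 CPM in the saline tumors, 16.2, 0.656 and 3.95 CPM in the i.v. TLZ tumors, and 3.03, 19.3 and 1082 CPM in the NanoTLZ tumors, in the order of labels given above. NanoTLZ tumor C3698 had 45.3 times the next highest level, 20907 counts, while the other 8 tumors lay at or below 501 counts. Its antisense neighbour Igf2os, which overlaps Igf2, was also highest there, at 9.31 CPM against 0.216 CPM or less in the others, and since the strand setting of the counting is not given in the sources used here, reads of the pair cannot be told apart. H19 in C3698 was the third lowest of the 9, at 13.0 CPM. The tumor highest in H19, A3685, was the second highest in Igf2. Across the 9 tumors H19 and Igf2 had a Pearson r of 0.01 and a Spearman rho of 0.33 on log2 CPM, and r was -0.44 without B3684 and A3685. These tumors had a similar depth, and the values are descriptions.

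The receptor side of the pathway was steadier. Igf2r, the maternally expressed receptor that takes IGF2 to lysosomes for degradation (chromosome 17, 12682406 to 12769664, minus strand), was at 600, 185 and 107 CPM in the saline tumors, 407, 313 and 315 CPM in the i.v. TLZ tumors, and 271, 178 and 279 CPM in the NanoTLZ tumors. All i.v. TLZ values lay above all NanoTLZ values, whereas the saline tumors spanned both groups. C3698, with the highest Igf2, was the median tumor for Igf2r, at 279 CPM. Grb10, a maternally expressed adaptor that dampens insulin and IGF receptor signaling (chromosome 11, 11930508 to 12038683, minus strand), stood at 9.73, 9.63 and 11.2 CPM in the saline tumors, 12.4, 46.7 and 93.6 CPM in the i.v. TLZ tumors, and 8.04, 15.3 and 9.16 CPM in the NanoTLZ tumors. Its i.v. TLZ values lay above every saline value, with B3638 just above, and B3684 and B3700 were the highest of the 9 tumors.

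**Figure D1:**
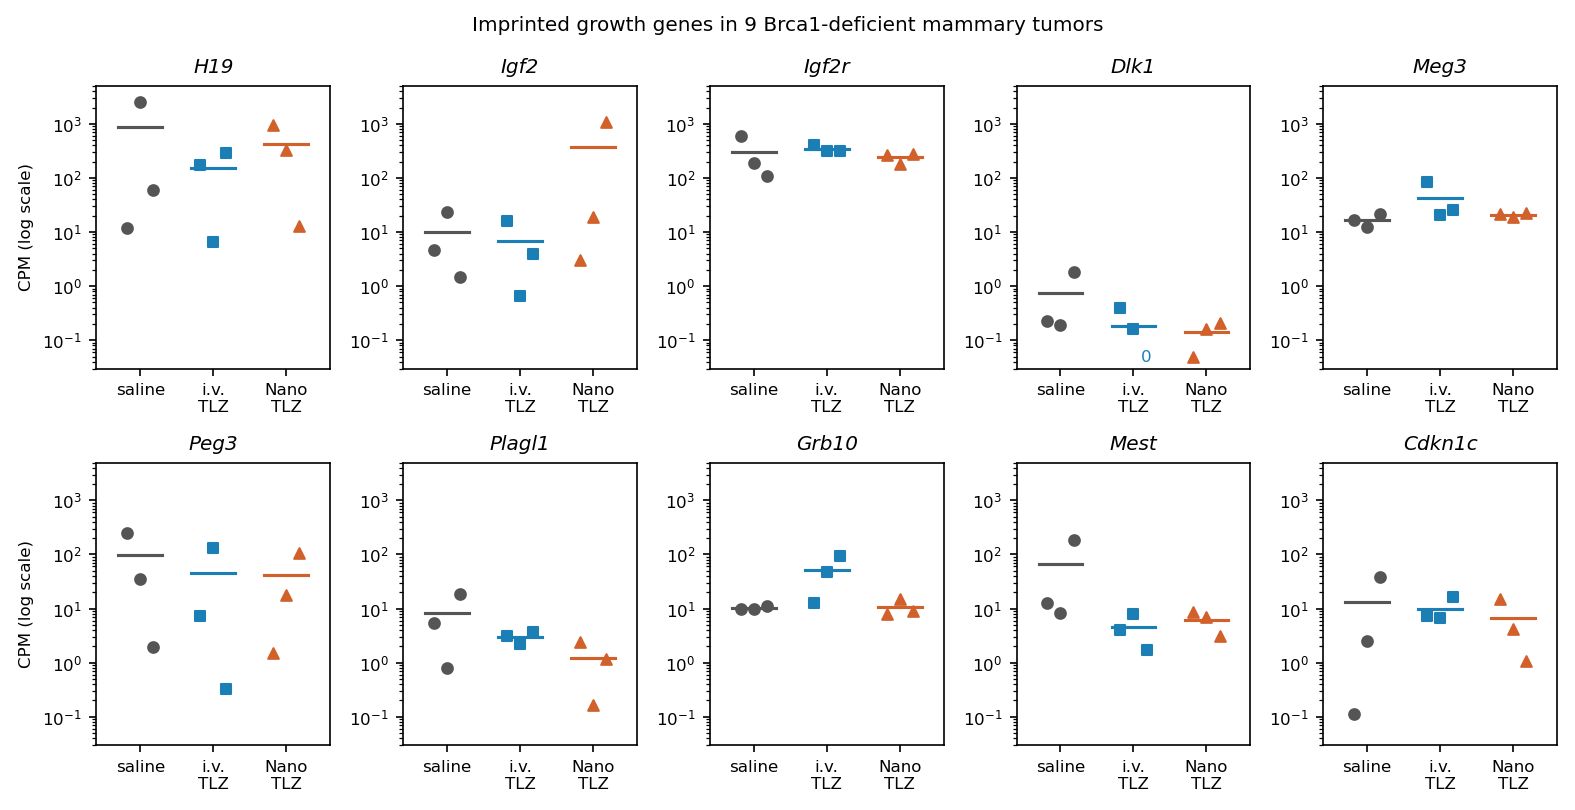
Levels of the 10 genes in CPM on a log scale, 1 point per tumor and 1 panel per gene, with tumors grouped by treatment (circles saline, squares i.v. TLZ, triangles NanoTLZ) and a bar at the group mean; the digit 0 marks a tumor with no count. H19 and Peg3 spread over orders of magnitude within each group, Igf2 is high in 1 NanoTLZ tumor (1082 CPM), and Igf2r and Meg3 vary less.

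Peg3, a paternally expressed zinc finger gene (chromosome 7, 6703892 to 6730431, minus strand), had a wider range than H19. It measured 252, 34.5 and 1.93 CPM in the saline tumors, 7.32, 131 and 0.325 CPM in the i.v. TLZ tumors, and 1.49, 18.0 and 108 CPM in the NanoTLZ tumors. Each group thus held 1 tumor above 100 CPM and 1 below 2 CPM. The highest tumor, A3673, had 776-fold the level of the lowest, B3700, at 4405 against 6 counts. The lower count is close to the floor of 3 counts, so this ratio is imprecise. The 3 tumors lowest in H19 (B3684, A3673 and C3698) were the 3 highest in Peg3, 1 from each group. For H19 and Peg3, r was -0.57 and rho -0.58 over 9 tumors, -0.76 without B3684 and A3685, and -0.63 for deviations from the group means. Left out in another way, without A3685 and C3519, the 2 tumors highest in H19, r was -0.78. Pairs with H19 carry no test.

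Cdkn1c, the maternally expressed cyclin-dependent kinase inhibitor p57, lies on the same chromosome (143458339 to 143461050, minus strand). It was at 0.114, 2.53 and 37.7 CPM in the saline tumors, 7.27, 6.67 and 16.0 CPM in the i.v. TLZ tumors, and 14.7, 4.15 and 1.09 CPM in the NanoTLZ tumors. A3673, highest in Peg3, was lowest in Cdkn1c with 2 counts, and A3688 was highest with 822 counts. Peg3 and Cdkn1c ran in opposite order over the 9 tumors (r = -0.82, exact permutation p = 0.00507, adjusted p = 0.142; rho = -0.85, exact permutation p = 0.00607, adjusted p = 0.17; two-sided). Among the 28 pairs of tested members this was the only one with an unadjusted p under 0.05, and 0 pairs passed after adjustment over those pairs. Its r was -0.79 without B3700 and A3673 and -0.81 for deviations from the group means.

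Kcnq1ot1, the paternally expressed noncoding RNA that silences Cdkn1c in cis, was at 30.8, 6.10 and 68.8 CPM in the saline tumors, 8.73, 30.8 and 2.22 CPM in the i.v. TLZ tumors, and 3.18, 5.95 and 19.97 CPM in the NanoTLZ tumors. The 4 tumors lowest in H19 were the 4 highest in Kcnq1ot1, with r = -0.75 and rho = -0.73 over 9 tumors and r = -0.77 without B3684 and A3685. Kcnq1ot1 was singled out after its values were seen. It lies at 143203458 to 143296549, within the span of Kcnq1 (143106362 to 143427042). With the strand setting not given, reads of this pair cannot be told apart where they overlap. Cdkn1c and Kcnq1ot1 were both highest in A3688.

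**Figure D2:**
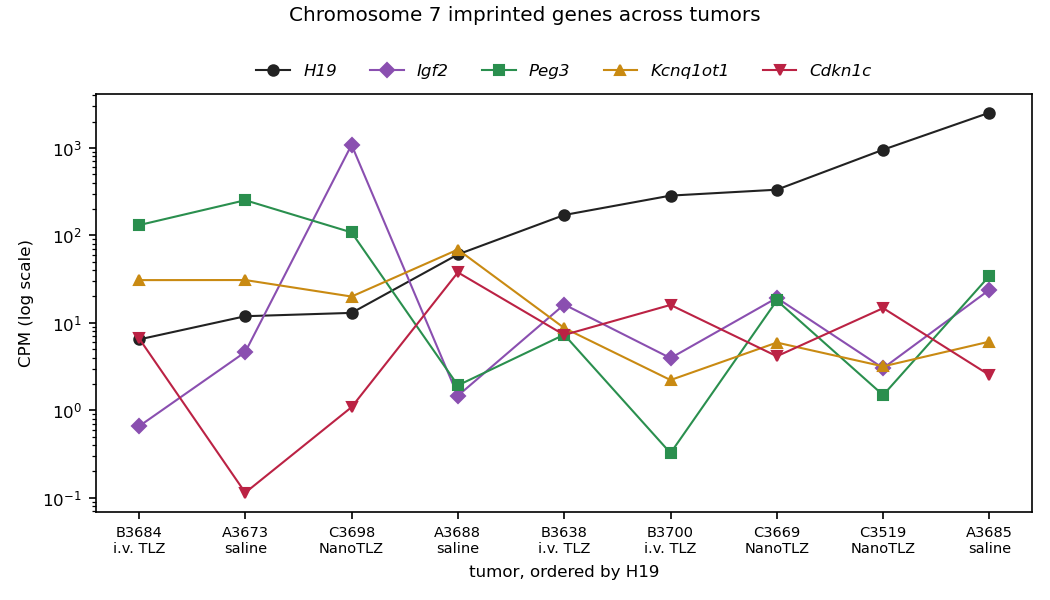
Levels of 5 imprinted genes of chromosome 7 in CPM (log scale) for each tumor, with tumors ordered from the lowest to the highest H19; lines join the values of 1 gene for the eye only. Peg3 and Kcnq1ot1 are high at the left, where H19 is low, and Igf2 peaks at 1082 CPM in C3698.

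Plagl1, a paternally expressed zinc finger transcription factor (chromosome 10, 13060504 to 13131694, plus strand), was at 5.38, 0.810 and 18.9 CPM in the saline tumors, 3.15, 2.19 and 3.63 CPM in the i.v. TLZ tumors, and 2.36, 0.164 and 1.19 CPM in the NanoTLZ tumors. A3688 was highest, and C3669 had 3 counts. Mest, a paternally expressed hydrolase-like gene that is strong in growing adipose and mesenchymal tissue (chromosome 6, 30723547 to 30748465, plus strand), was at 12.8, 8.24 and 181 CPM in the saline tumors, 4.07, 7.87 and 1.73 CPM in the i.v. TLZ tumors, and 8.52, 6.88 and 3.16 CPM in the NanoTLZ tumors. A3688 held 14.2 times the next highest level, and without it all values lay between 1.73 and 12.8 CPM. Copg2, which overlaps Mest on the opposite strand, was also highest in A3688, at 79.9 CPM against 21.5 to 54.5 CPM elsewhere, and so was Cep41, at 18.8 against 3.30 to 11.4 CPM. Mest and Copg2 had r = 0.91 over 9 tumors and 0.62 without B3700 and A3688. With the strand setting not given, reads of this pair cannot be told apart either, nor can those of Igf2r and the Airn transcript that overlaps it.

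Dlk1 and Meg3 lie in 1 imprinted domain on chromosome 12. Dlk1, a paternally expressed Notch-related surface protein of immature cells (109452823 to 109463336, plus strand), was near background, with 0 to 8 counts in 8 tumors and 39 counts (1.79 CPM) in A3688. Meg3, a maternally expressed long noncoding RNA (109541001 to 109571726, plus strand), was at 16.9, 12.2 and 21.4 CPM in the saline tumors, 82.6, 20.8 and 25.5 CPM in the i.v. TLZ tumors, and 21.2, 19.2 and 22.6 CPM in the NanoTLZ tumors. B3638 stood above all others, and the remaining 8 tumors lay between 12.2 and 25.5 CPM. Rian, another maternally expressed RNA of the domain, was also highest in B3638, at 21.6 CPM against 6.56 to 15.6 CPM, and Mirg, Rtl1 and Dio3 had their highest values there too, at 2.13, 1.26 and 2.13 CPM. The other listed genes of the domain peaked elsewhere, Begain in A3688 and Wars in A3673 (95.3 CPM, against 94.2 CPM in B3638). Meg3 and Rian had r = 0.77, which fell to -0.01 without B3638 and A3685. B3638 also held the highest summed level of 10 fibroblast markers, 6155 CPM against 1028 to 3184 CPM elsewhere, and their part in the Meg3 level was not tested. In whole tumors, fewer cells of a type and less RNA per cell cannot be told apart.

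Per kilobase of exon, the median level over the 9 tumors was highest for H19 (69.4 CPM per kb), then Igf2r (30.0), Cdkn1c (3.27), Mest (1.995), Peg3 (1.35), Grb10 (1.23), Meg3 (1.17), Igf2 (0.810), Plagl1 (0.302) and Dlk1 (0.0337). The ranges over tumors of every pair of neighbours in this order overlapped. H19 ranged from 2.62 to 1026 and Igf2r from 11.5 to 64.5 CPM per kb.

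Most of the tested members had a wide within-group spread against the rest of the transcriptome. The median standard deviation of log2 CPM within groups was 0.53 over all tested genes. It was 3.02 for Igf2, 3.59 for Peg3, 2.43 for Cdkn1c, 1.60 for Plagl1 and 1.58 for Mest. The value of 3.40 for H19 is a description only, since its spread chose the list. Of the 8 tested members, 5 lay above 95.1% to 100% of all tested genes by this measure. Among them, Mest, Plagl1 and Cdkn1c were highest in the outlying tumor A3688. They were at 181, 18.9 and 37.7 CPM there, against at most 12.8, 5.38 and 16.0 CPM elsewhere. The part of that tumor in their spread was not tested. Meg3 (0.67), Igf2r (0.77) and Grb10 (0.90) lay above 65.0%, 73.1% and 79.9% of tested genes. Differences between groups made up 5.96% of the variance of Peg3, 11.7% of Cdkn1c, 14.8% of Igf2r, 27.1% of Igf2, 35.1% of Plagl1, 41.5% of Meg3, 46.4% of Mest and 59.1% of Grb10. The highest values of the 10 genes fell in 6 different tumors, with 4 in A3688, 2 in A3673, and 1 each in A3685, B3638, B3700 and C3698. Of all tested genes, 25.7% were highest in A3688 and 16.6% in A3673.

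**Figure D3:**
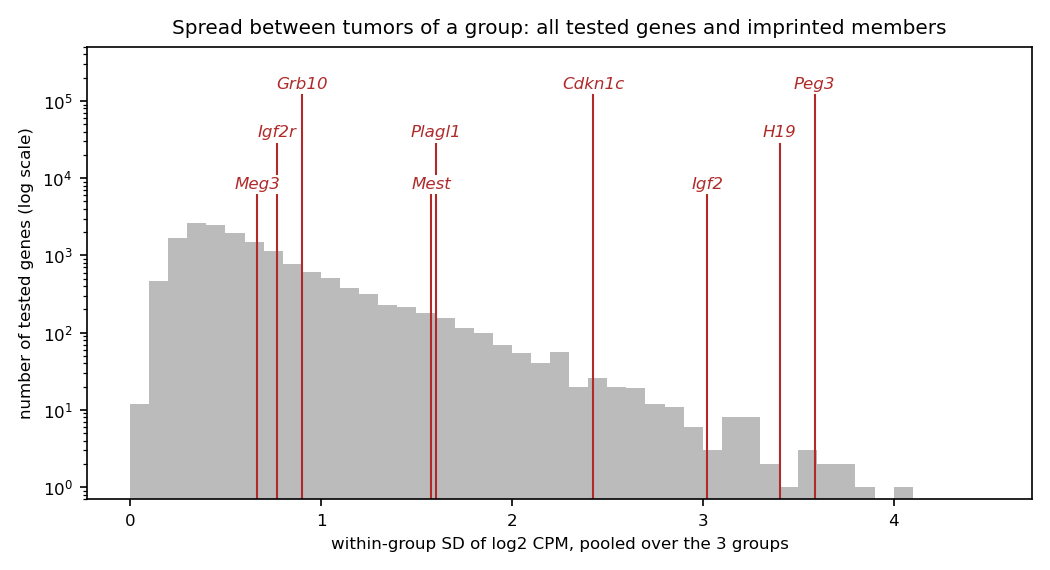
Number of tested genes (log scale, gray bars) by the standard deviation of log2 CPM within groups, with red lines at the 9 imprinted genes that passed the filter. Most tested genes lie below 1, and H19, Igf2, Peg3 and Cdkn1c lie above 2; H19 was the gene whose spread chose the list.

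The comparison of i.v. TLZ with saline asked whether these genes changed with the free drug, by edgeR's quasi-likelihood test with Benjamini-Hochberg adjustment over 15821 genes. Of the 8 tested members 0 passed an adjusted p of 0.05, as did 0% of all tested genes. At an unadjusted p under 0.05 there were 3 members, against 10.4% of all tested genes. Grb10 had a log2 fold change of 2.32 (SE 0.61, adjusted p = 0.417 in edgeR), Mest of -3.89 (SE 1.14, adjusted p = 0.417), and Meg3 of 1.35 (SE 0.50, adjusted p = 0.443). The groups did not overlap for 2 members, Grb10 (higher) and Mest (lower), and for 11.2% of tested genes. DESeq2, run as an alternative, called 1.12% of the genes it tested and called Grb10 (log2 fold change 2.32, SE 0.61, adjusted p = 0.0225), while it gave Igf2 and Mest no p. Without B3700 the edgeR log2 fold change of Grb10 was 1.56, without A3688 that of Mest was -1.18, and without B3638 that of Meg3 was 0.46.

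NanoTLZ against saline, which shares the saline tumors with the comparison above, gave 0 of 8 members at an adjusted p of 0.05, against 0.00632% of tested genes, and 3 members at an unadjusted p under 0.05, against 8.99%. Igf2 had a log2 fold change of 5.20 (SE 2.03, adjusted p = 0.552 in edgeR), which was 0.18 without C3698. Mest had -3.45 (SE 1.12, adjusted p = 0.552), which was -0.73 without A3688, and Plagl1 had -2.74 (SE 1.08, adjusted p = 0.552), which was -1.27 without A3688. No member had groups that did not overlap (0 of 8), against 15.9% of tested genes. DESeq2 called 0.712% of the genes it tested and none of the members to which it gave an adjusted p, which left out Igf2 and Mest.

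Between the 2 forms of the drug at the same dose and schedule, 0 of 8 members passed an adjusted p of 0.05 (0% of tested genes) and 2 passed unadjusted, against 1.68% of tested genes. These were Grb10 (log2 fold change -2.23, SE 0.61, adjusted p = 1 in edgeR), which was -1.44 without B3700, and Igf2 (5.73, SE 2.08, adjusted p = 1), which was 0.71 without C3698. Igf2r was the 1 member whose groups did not overlap (log2 fold change -0.51, SE 0.54, adjusted p = 1 in edgeR), against 7.61% of tested genes. DESeq2 called 0.0119% of the genes it tested and no member with an adjusted p, with Igf2 and Mest again given none. A p that misses the threshold does not show that the forms act alike, and the standard errors of Igf2 (2.08), Peg3 (1.87) and Cdkn1c (1.39) on the log2 scale were wide.

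With the 6 treated tumors as 1 set against saline, 0 of 8 members passed an adjusted p of 0.05 (0.019% of tested genes) and 3 passed unadjusted, against 13.1%. Mest had a log2 fold change of -3.67 (SE 0.87, adjusted p = 0.271 in edgeR), Plagl1 of -2.11 (SE 0.84, adjusted p = 0.347) and Grb10 of 1.20 (SE 0.53, adjusted p = 0.376). Without A3688 Mest was at -0.96 and Plagl1 at -0.65. No member had groups that did not overlap (0 of 8), against 5.47% of tested genes. DESeq2 called 1.53% of the genes it tested and no member with an adjusted p, and Mest and Igf2 had none. The median log2 fold change of the 8 members was -0.48, -0.65, -0.55 and -0.38 in the 4 comparisons in the order given, against -0.03, -0.09, -0.04 and -0.06 over all tested genes.

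**Figure D4:**
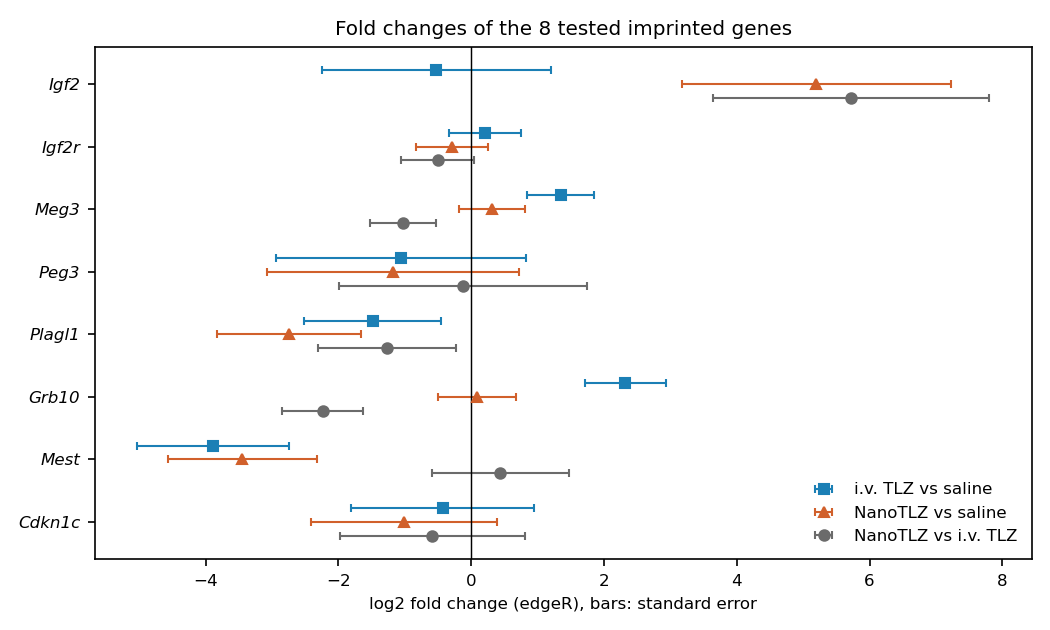
Fitted log2 fold changes of the 8 tested genes with their standard errors as bars, for i.v. TLZ against saline (squares), NanoTLZ against saline (triangles) and NanoTLZ against i.v. TLZ (circles). Igf2 lies at 5.20 and 5.73 where C3698 enters, Mest at -3.89 and -3.45 where A3688 enters, and the bars of Peg3 and Cdkn1c cross 0.

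Other genes of the same domains and of the IGF pathway were taken from fixed lists. Counts here are at an unadjusted p under 0.05 in the comparison of both treatments with saline, where 13.1% of all tested genes passed it and 0 genes of these lists passed the adjusted threshold. Values without A3688 are given beside them, from a fit in which 9.27% of all tested genes passed. Among neighbours of H19 and Igf2, 1 of 8 tested genes was lower, the muscle troponin Tnnt3 (log2 fold change -5.11, SE 0.82, adjusted p = 0.0998 in edgeR; -3.64 without A3688). In the Cdkn1c domain 1 of 6 was lower (Nap1l4, -0.73, adjusted p = 0.351 in edgeR), at 262 CPM in A3688 and 86.9 to 121 CPM in the other 8 tumors. In the Dlk1 and Meg3 domain 1 of 5 was lower (Begain, -2.73, adjusted p = 0.307 in edgeR), at 19.3 CPM in A3688 and 0.334 to 2.08 CPM elsewhere. Without A3688 Nap1l4 was at -0.19 and Begain at 0.81, and 0 genes of either domain passed. Neither of the 2 tested genes of the Igf2r domain nor any of the 5 neighbours of Mest and Grb10 passed, and no neighbour of Peg3 was high enough to test. Of 11 other paternally expressed genes, Peg12 was lower (-2.79, adjusted p = 0.284 in edgeR) and Rasgrf1 higher (2.61, adjusted p = 0.363). Peg12 was at 8.26 CPM in A3688 and 0.164 to 0.858 CPM elsewhere, and without A3688 its log2 fold change was -0.40 and 0 of the 11 passed. Of 9 other maternally expressed genes 0 passed, and 1 was higher without A3688.

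In the IGF pathway outside these members, 0 of 8 ligands, receptors, adaptors and Igf2 RNA-binding proteins (Igf2bp1, Igf2bp2 and Igf2bp3) passed. Of 10 IGF binding proteins and their proteases 1 was higher, Igfbp7 (1.43, SE 0.43, adjusted p = 0.284 in edgeR). Without A3688 Igfbp7 remained the 1 higher (1.06, adjusted p = 0.407 in edgeR). In that fit 1 was lower, Igfbp5 (-1.20, adjusted p = 0.494 in edgeR). Igf1r, the signaling receptor of IGF1 and IGF2, ranged from 19.2 to 67.7 CPM and Igfbp5 from 42.9 to 4759 CPM, both lowest in A3688 and both named after their values were seen. Of 12 factors that set, keep, bind or remove imprints 6 were lower, with a list median of -0.57 against -0.06 over all tested genes. Among these 6 were the demethylase Tet2 (-0.81, adjusted p = 0.284 in edgeR) and the zinc finger protein Zfp445 (-0.90, adjusted p = 0.288 in edgeR). Uhrf1, a partner of the maintenance methyltransferase, was also lower (-0.93, adjusted p = 0.289 in edgeR). In the separate comparisons 5 were lower with i.v. TLZ and 4 with NanoTLZ, where 10.4% and 8.99% of all tested genes passed in either direction. Without A3688 the counts lower were 3 for both treatments, 3 for i.v. TLZ and 0 for NanoTLZ, with 1 higher for both treatments. In those fits 9.27%, 9.54% and 6.66% of all tested genes passed in either direction, in the same order. Of 8 proliferation markers 6 were lower in the same way (3 without A3688), with summed levels of 693 to 2125 CPM in saline, 357 to 691 in i.v. TLZ and 501 to 608 in NanoTLZ tumors, and their part in the level of these factors was not tested. Of 6 fetal growth genes outside imprinting 0 passed.

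Markers of other cell types were summed beside these values. In the comparison of both treatments with saline, 13.1% of all tested genes passed an unadjusted p under 0.05, and 9.27% without A3688. Skeletal muscle markers, of which 7 of 8 tested were lower in both treatments against saline at an unadjusted p under 0.05 (6 without A3688), summed to 34.0 CPM in A3673, 207 CPM in A3685 and 726 CPM in A3688, against 6.01 to 40.9 CPM in i.v. TLZ and 15.7 to 25.0 CPM in NanoTLZ tumors. Myh4 passed after adjustment (adjusted p = 0.0207 in edgeR). Of the 12 listed, Tnnc2 and Pax7 were at or under 3 counts in every tumor. A3685 and A3688, the saline tumors highest in H19, had the highest muscle marker sums, while C3519, C3669 and B3700 had more than 280 CPM of H19 with 25.0, 19.9 and 21.9 CPM of muscle markers. The part of muscle RNA in the H19 level was not tested. Of 10 fibroblast markers 2 were higher (0 without A3688), with sums of 1513 to 2102 CPM in saline, 1028 to 6155 in i.v. TLZ and 1758 to 3184 in NanoTLZ tumors. Of 8 tested epithelial markers 1 was lower, Krt5, whose log2 fold change turned from -5.39 to 1.90 without A3688, with sums of 4696 to 8228, 5477 to 6509 and 3829 to 5470 CPM in the same order. Of 6 tested cartilage markers 2 were higher (3 without A3688), with Col2a1 also past the adjusted threshold (adjusted p = 0.0207 in edgeR). Cartilage sums were 269 to 923, 630 to 1272 and 833 to 1595 CPM, with Matn1 at or under 3 counts in every tumor. None of 3 tested adipocyte, 7 endothelial or 5 leukocyte markers passed, with saline sums of 21.2 to 53.7, 68.6 to 185 and 126 to 545 CPM, i.v. TLZ sums of 11.6 to 54.6, 90.6 to 209 and 206 to 543 CPM, and NanoTLZ sums of 24.0 to 131, 174 to 232 and 483 to 691 CPM.

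The genes whose log2 CPM ran most like that of H19 over the 9 tumors were Rnf215 (r = 0.92), Eif1 (0.87), Zmat5 (0.87), Rgs7bp (0.87) and Aptx (0.87), and none of them is on chromosome 7. Without B3684 and A3685 their r was 0.865, 0.762, 0.833, 0.702 and 0.846. Rnf215 ranged only from 18.7 to 51.3 CPM, and Rgs7bp was low, at 0.109 to 1.05 CPM. Those most like Igf2 were Sdf2l1 (r = 0.94), Rassf2 (0.93), Prkd2 (0.92), Kri1 (0.91) and Clec4a1 (0.90), all highest in C3698, and without C3698 and B3684 their r was 0.57, 0.76, 0.81, 0.56 and 0.86.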

How the data were processed

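RNA was extracted from 9 mammary tumors, 1 per mouse and 3 per group, and sequenced by Novogene. The authors deposited 1 table of raw read counts per gene, without normalization. The submitters' processing notes name TopHat2, DESeq2 and mm10 without roles or versions; the counting program, annotation and strand setting are not given in the sources used here. Groups came from the treatment labels. Positions and symbols came from GENCODE M21 (GRCm38), which matched 34490 of 35275 identifiers.

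Counts were filtered with filterByExpr (minimum count 10, minimum total 15), scaled by TMM, and fitted to all 9 tumors by the quasi-likelihood F-test of edgeR 4.0.16 in R 4.3.3, with 1 coefficient per group and no covariate. An adjusted p under 0.05 over 15821 genes was the threshold, and the common biological coefficient of variation was 49.8%. CPM values used TMM library sizes, and log2 CPM a prior count of 2. Levels of 3 counts or fewer were taken as the floor, and floors cover counting error only. The fits were tested on simulated data. Correlations used exact permutation of pairings (scipy 1.17.1).

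The alternatives were DESeq2 1.42.0, upper quartile scaling, other filters and prior counts, and leaving out each tumor; the gene lists without A3688 were added after seeing the data. The members and gene lists were chosen with earlier results of these data known. Genes named were the members, up to 3 genes per list with the lowest unadjusted p for both treatments against saline, and the 5 most like H19 and Igf2. No litter or batch labels are given, so the spread between tumors that the p-values rest on can include unrecorded differences of these kinds.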

Additional observations from a re-analysis of the deposited data

Results flagged for a closer look

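Among the 6 treated tumors, 1 tumor lay far from the rest for 2 of the 9 genes other than H19, by the gap to its nearest neighbour over the whole range (above Dixon's 95% critical value for 6 samples). Igf2 was at 1082 CPM in NanoTLZ tumor C3698, with a gap of 0.983 of the range. Meg3 was at 82.6 CPM in i.v. TLZ tumor B3638, with a gap of 0.9. Chance puts about 1 in 20 groups past this value where values are normally distributed, and 13.5% of all tested genes passed it on the same CPM scale in these tumors, so nothing particular to these genes is read from the count. H19 was not examined in this way, since its spread chose the genes, and neither was the saline group, with 3 tumors.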

How the results depend on the processing

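No paired analysis was possible because numbers shared between treatment groups only name the tumors and come from no label. With 8 members in 4 comparisons, 19 of 32 fold changes kept their direction in every alternative, and 472 of 492 alternative values kept it. The number of members called for i.v. TLZ against saline was 0 in edgeR and 1 in DESeq2 (Grb10). The number of correlated pairs ranged from 0 to 1 when each tumor was left out, with 1 without i.v. TLZ tumor B3684. Under upper quartile scaling Igf2r for both treatments became 0.076 instead of -0.04.

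Leaving out 1 tumor turned the direction of 13 log2 fold changes. For i.v. TLZ against saline the ranges were -2.12 to 1.19 for Igf2, -0.17 to 1.25 for Igf2r, -4.65 to 1.36 for Peg3 and -0.99 to 2.90 for Cdkn1c. For NanoTLZ against saline they were -0.66 to 0.76 for Igf2r, -3.27 to 1.25 for Peg3, -2.35 to 2.34 for Cdkn1c and -0.21 to 0.27 for Grb10. Between NanoTLZ and i.v. TLZ, Peg3 ranged from -2.24 to 3.47. For both treatments they were -0.18 to 4.05 for Igf2, -0.42 to 1.002 for Igf2r, -2.91 to 1.30 for Peg3 and -1.39 to 2.62 for Cdkn1c. Peg3 against saline turned without A3673, Cdkn1c without A3688, and Igf2 for both treatments without C3698. The cause was not tested beyond which tumor was left out. With 3 tumors a group and a common variation of 49.8%, small changes were not detectable.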

Other observations

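The RNA-binding proteins that bind Igf2 and H19 transcripts, which are themselves fetal genes, also differed between tumors. Igf2bp1 was at 205, 40.6 and 0.0459 CPM in saline tumors A3673, A3685 and A3688, at 71.7, 0.219 and 9.63 CPM in i.v. TLZ tumors B3638, B3684 and B3700, and at 19.4, 4.97 and 50.1 CPM in NanoTLZ tumors C3519, C3669 and C3698. Igf2bp2 ranged from 0.826 CPM in A3688 to 144 CPM in A3673. Igf2bp3 was highest in C3698, the tumor highest in Igf2, at 5.59 CPM against 0.984 CPM or less elsewhere. The fetal chromatin gene Hmga2 was at 0.321 CPM in A3688 and between 43.5 and 102 CPM in the other 8 tumors. These genes were named after their values were seen, and they were tested only as part of their lists. Igf2bp3 had a log2 fold change of 2.08 (SE 0.79, adjusted p = 0.552 in edgeR) for NanoTLZ against saline. For H19 and Igf2bp1, r was 0.20 and rho -0.02 over the 9 tumors, and r was -0.25 without B3684 and A3685.

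Some imprinted genes of other regions were also high in 1 tumor. Slc38a4, an amino acid transporter, was at 11.6 CPM in A3688 and at 0.191 CPM or less in the others. Peg10 and its neighbour Sgce were at 10.1 and 16.5 CPM in B3684, against at most 1.24 and 4.80 CPM elsewhere.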
